A study of Homo sapiens with 6 samples.

Results

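The transactivator gene CIITA, the 3 subunit genes of the RFX complex (RFX5, RFXANK and RFXAP) and 5 genes of MHC class II antigen processing (CD74, IFI30, CTSS, CTSB and LGMN) were chosen by symbol for their known roles, and all 9 were among the 17187 gene symbols of the deposited table. RNA was measured in 6 libraries of HT-1080, an established human fibrosarcoma cell line labelled wild type. Cells of the 3 IFNg libraries had been exposed for 8 h to 10 ng/ml of the cytokine interferon gamma (IFNg), and those of the 3 control libraries had received PBS, the vehicle, in the same culture medium. The comparison asks which transcripts of these tumour cells differ after exposure to IFNg. Whether replicates were grown as separate cultures is not labelled, so p-values measure only the spread between these libraries, which may be technical.

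MHC class II molecules display peptides of endocytosed proteins to CD4+ T cells. Their genes are switched on by CIITA, which binds no DNA itself and is held at class II promoters by the RFX complex on the X box, by NF-Y on the Y box and by CREB. Professional antigen-presenting cells express CIITA constitutively, and many other cell types express it after IFNg, mainly from promoter IV of the gene, where IRF1 and USF1 are among the factors that bind. The newly made class II dimer is capped by the invariant chain, encoded by CD74. In endosomes, proteases that include cathepsin S (CTSS) cut the invariant chain down to the CLIP peptide, while IFI30, a thiol reductase, opens disulfide bonds of antigens, and cathepsin B (CTSB) and the asparaginyl endopeptidase legumain (LGMN) cut antigens.

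The promoter windows of RFX5, CD74 and IFI30, which rose, and of RFXAP, which was not called, are shown because the X and Y boxes read by the RFX complex and NF-Y lie in such regions. They are RefSeq sequences on GRCh38.p14, from 250 bases before to 50 bases after the annotated start, 5′ to 3′ on the gene's strand, at chr1:151347203-151347502 (minus strand, the outermost of 3 listed starts), chr5:150412861-150413160 (minus), chr19:18173563-18173862 (plus) and chr13:36818972-36819271 (plus). Capitals mark every match, on either strand, to the CCAAT core of the Y box, to the RFX half-site GTTGC of the X box, to the gamma-activated sequence GAS (TTCNNNGAA), to the core of the interferon-stimulated response element (a pair of GAAA runs with 2 bases between them) or to the E box CACGTG, and no match overlapped another.
RFX5: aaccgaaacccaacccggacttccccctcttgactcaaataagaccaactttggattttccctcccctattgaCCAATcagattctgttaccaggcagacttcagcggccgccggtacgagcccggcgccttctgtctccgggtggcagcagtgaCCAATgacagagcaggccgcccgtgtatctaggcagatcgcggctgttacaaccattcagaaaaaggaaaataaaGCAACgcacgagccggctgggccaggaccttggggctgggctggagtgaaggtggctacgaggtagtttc
CD74: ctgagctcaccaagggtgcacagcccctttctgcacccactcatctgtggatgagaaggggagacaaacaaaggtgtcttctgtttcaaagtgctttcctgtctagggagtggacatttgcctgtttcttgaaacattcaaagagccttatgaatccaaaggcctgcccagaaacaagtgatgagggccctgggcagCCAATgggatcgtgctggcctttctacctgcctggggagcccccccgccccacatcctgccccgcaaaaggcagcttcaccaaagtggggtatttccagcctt
IFI30: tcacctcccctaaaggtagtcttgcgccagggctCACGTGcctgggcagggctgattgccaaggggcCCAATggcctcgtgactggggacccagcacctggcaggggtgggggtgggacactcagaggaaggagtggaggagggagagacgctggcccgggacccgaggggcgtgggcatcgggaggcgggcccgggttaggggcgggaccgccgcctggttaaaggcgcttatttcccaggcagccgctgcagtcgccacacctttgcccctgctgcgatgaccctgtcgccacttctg
RFXAP: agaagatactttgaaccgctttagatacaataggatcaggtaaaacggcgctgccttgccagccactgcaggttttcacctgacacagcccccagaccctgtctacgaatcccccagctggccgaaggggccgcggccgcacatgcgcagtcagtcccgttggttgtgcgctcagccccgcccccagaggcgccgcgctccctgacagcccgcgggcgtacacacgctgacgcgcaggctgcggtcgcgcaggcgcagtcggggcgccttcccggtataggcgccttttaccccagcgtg

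CCAAT began 177 and 95 bases upstream of the RFX5 start, 53 bases upstream of the CD74 start and 183 bases upstream of the IFI30 start. The RFX half-site was read as GCAAC 20 bases upstream of the RFX5 start, and CACGTG stood 216 bases upstream of the IFI30 start. The other windows listed for RFX5 held more matches: the response element core 207, the half-site 182 and CACGTG 72 bases upstream of the start of the next window, where the same CACGTG lies 215 bases upstream of the start of the last, since these windows overlap. Of the genes that were not called, RFXAP had no match to these letters in its window, and RFXANK had the half-site 156 bases upstream and again at position 6 after the start in 1 of its 3 windows and no match in the others. No window was searched for CIITA and CTSS, which rose, or for CTSB and LGMN, which were not called. Matches are therefore not compared between risen and uncalled genes. Of all 35116 windows of this length in the RefSeq table, 34.6% held CCAAT, 33.6% the half-site, 7.66% the GAS letters, 3.57% the response element core and 7.26% the E box. A match is a run of letters and not a binding site shown by these data.

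The 6 libraries had gene-assigned read totals of 59556948 (IFNg 3) to 83501954 (control 2), and values are normalised read counts, which are reads divided by a size factor of the library and not by gene length. The 10 mesenchymal genes listed summed to 748391 to 768874 in IFNg and 829275 to 853928 in control, without overlap, with VIM at 369946 in IFNg and 380457 in control (means). Among them PLAU, the urokinase gene, fell by 0.53 on the log2 scale (limma adjusted p = 0.00709), and COL1A1 (194 in IFNg and 322 in control), COL1A2 (74.8 in IFNg and 71.6 in control) and S100A4 (35.0 in IFNg and 63.6 in control) were scarce. Leukocyte genes were scarce: PTPRC, the common leukocyte antigen gene, had 49 reads over the IFNg group, 48 of them in IFNg 1, and 19 over the control group. The 3 B cell genes of 6 listed that were in the table (CD79A, CD79B and BLK) summed to at most 0.929 in an IFNg library and 12.9 to 24.3 in control libraries, with CD79A and CD79B at 0 reads in IFNg. The 5 of 10 monocyte, macrophage and dendritic cell genes in the table summed to 9014 to 14961 in IFNg and 10293 to 16245 in control. Nearly all of it came from CD68. CD14 had 28 reads in IFNg, all in IFNg 2, and 0 in control. The 6 of 7 T and natural killer cell genes in the table summed to 194 to 253 in IFNg and 145 to 197 in control. Most of this came from KLRD1, at 183 in IFNg and 137 in control (means), which limma did not call. Reads over the IFNg and control groups were 53 and 9 for CD3G, 32 and 0 for CD3E and 21 and 67 for CD3D. They were 6 and 4 for CD247 and 0 and 15 for CD2. For CD3D, 60 of the control reads were in control 2. The 3 of 5 epithelial genes in the table summed to 29077 to 34097 in IFNg and 23328 to 31872 in control, nearly all of it from KRT8 and KRT18. The part of other cells in the results below was not tested.

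CIITA, CD74, IFI30 and CTSS were 20.2-fold to 43.3-fold higher in IFNg than in control and RFX5 was 1.55-fold higher, while RFXANK, RFXAP, CTSB and LGMN overlapped between the groups. In limma's test of log2(value + 1), 5 of the 9 genes were higher and 0 lower at a Benjamini-Hochberg adjusted p of 0.05, against 4.32% of the 15546 genes tested (3.27% higher and 1.05% lower). edgeR gave 5 higher and 0 lower, against 4.69% of the genes it tested (3.47% and 1.22%), and DESeq2 gave the same, against 6.53% (4.44% and 2.09%). At an unadjusted p of 0.05 in limma the count was also 5 higher and 0 lower, against 8.81% and 6.46% of all genes tested. For these 5 genes the groups did not overlap, which was so for 20% of all genes tested, with 10.7% higher in IFNg and 9.28% lower. The median log2 difference of the 9 genes was 0.63, against -0.01 over all genes tested. In RNA from bulk cultures, more cells with a transcript and more transcript per cell cannot be told apart.

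**Figure D1:**
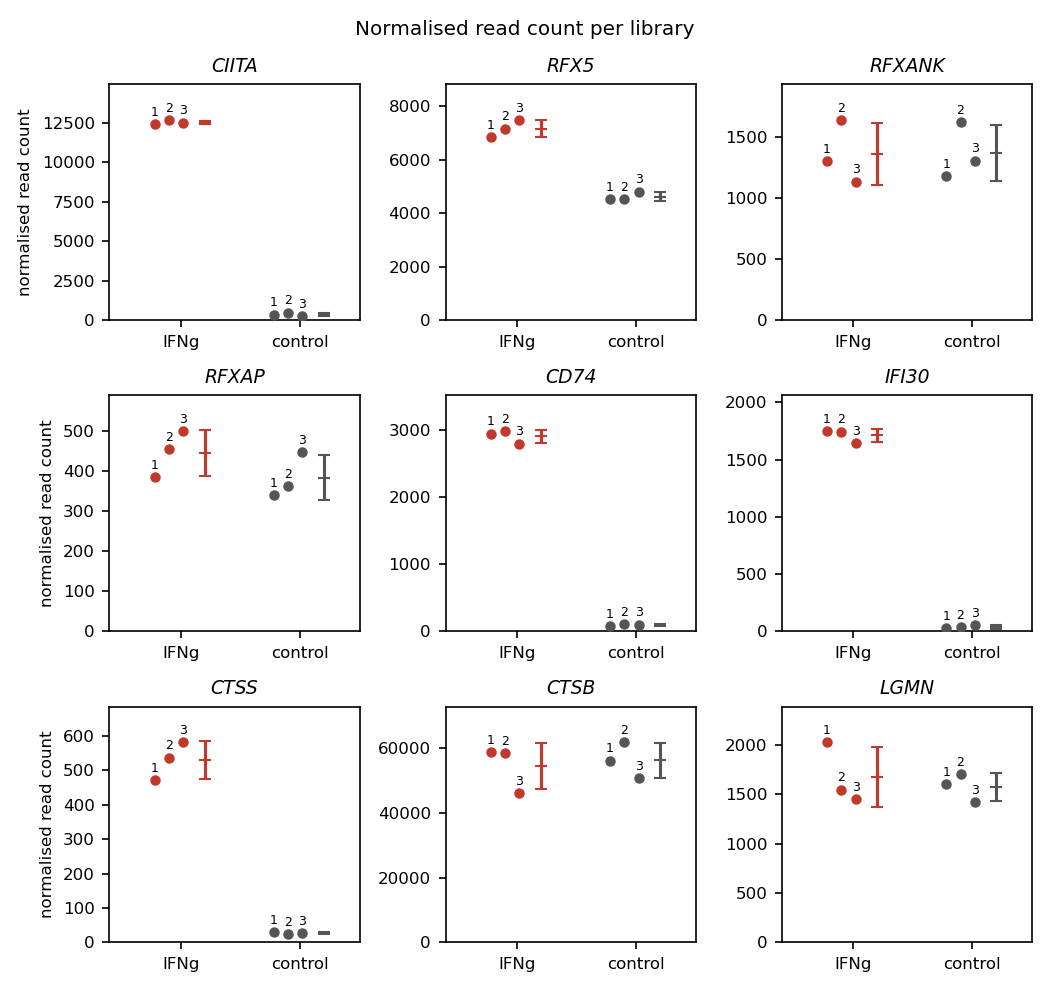
Normalised read count (y axis, linear from 0) of each of the 9 genes in the 3 IFNg libraries (red, left) and the 3 control libraries (grey, right), numbered by replicate, with the mean and SD beside the points. For CIITA, RFX5, CD74, IFI30 and CTSS all IFNg points lie above all control points, and the other 4 genes overlap between the groups.

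CIITA, on chromosome 16, had normalised read counts of 12430, 12659.9 and 12519 in the IFNg libraries and of 371, 490.2 and 289 in the control libraries. The lowest IFNg library was 25.4 times the highest control library. CIITA averaged 12536 ± 116 in IFNg and 383 ± 101 in control (SD, n = 3 each), so the libraries varied by 0.923% of the mean in IFNg and by 26.4% in control. Its log2 difference was 5.06 ± 0.17 (SE; limma adjusted p = 2.03e-09), the 34th highest of the 15546 genes tested. CIITA had 346, 587 and 297 reads in control 1, 2 and 3, more than CD74, IFI30 or CTSS had in any control library. Counts per gene do not separate the alternative CIITA promoters, so the share from promoter IV was not analysed here.

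RFX5, on chromosome 1, encodes the subunit with the DNA-binding domain that defines the RFX family. Its counts were 6834, 7148 and 7459 in IFNg and 4536, 4523 and 4805 in control. The groups did not overlap, and the lowest IFNg value was 1.42 times the highest control value. For RFX5 the log2 difference was 0.63 ± 0.09 (limma adjusted p = 0.00119). Without IFNg RFX5 stood far above CIITA in read count, and it was 1498th in the order of log2 differences.

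RFXANK, on chromosome 19, encodes the ankyrin-repeat subunit of the complex and had counts of 1306, 1637 and 1136 in IFNg and of 1180.5, 1625 and 1308 in control. RFXAP, on chromosome 13, encodes the third subunit and had counts of 386, 455 and 499 in IFNg and of 341, 363 and 448 in control. For both genes the groups overlapped. The log2 difference of RFXANK was -0.02 with a 95% interval of -0.40 to 0.36 (limma adjusted p = 0.982), and that of RFXAP 0.22 with an interval of -0.26 to 0.70 (0.722). RFXAP was highest in the library numbered 3 of each group.

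CD74, on chromosome 5, had counts of 2951, 2985 and 2803 in IFNg and of 76.1, 105 and 101 in control. It averaged 2913 ± 96.6 in IFNg and 94.2 ± 15.8 in control (SD, n = 3 each), a ratio of means of 30.9. The lowest IFNg library was 26.6 times the highest control library. Its log2 difference was 4.95 ± 0.20 (limma adjusted p = 1.5e-08). The short and long forms of the invariant chain come from the same gene and are not separated by these counts.

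IFI30, on chromosome 19, had counts of 1745, 1744 and 1643 in IFNg and of 27.9, 35.1 and 55.5 in control. It showed the highest log2 difference of the 9 genes, 5.46 ± 0.29 (limma adjusted p = 1.78e-07), with a 95% interval of 4.82 to 6.10. Control 3 was the highest control for IFI30, with 57 reads against 26 and 42 in control 1 and 2. Among all genes tested IFI30 was 25th, CIITA 34th, CD74 38th and CTSS 59th by log2 difference.

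The 3 protease genes did not move together. CTSS, on chromosome 1, encodes the cathepsin that makes the last cuts of the invariant chain in many antigen-presenting cells, and had counts of 471, 536 and 580.3 in IFNg and of 28.9, 23.4 and 26.3 in control. These control values rest on 27, 28 and 27 reads. Its log2 difference was 4.28 ± 0.33, the largest SE of the 9 genes, with a 95% interval of 3.56 to 5.01 (limma adjusted p = 5.06e-06). CTSS had the lowest read count of the 9 genes in control, whereas LGMN and CTSB were at 1419 or more in every library of both groups.

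CTSB, on chromosome 8, encodes a cathepsin of most cell types and had counts of 58850.4, 58552 and 46171 in IFNg and of 56146, 61782 and 50766 in control. LGMN, on chromosome 14, had counts of 2023, 1547 and 1453 in IFNg and of 1603, 1701 and 1419 in control. The groups overlapped for both genes, and both were lowest in the library numbered 3 of each group. The log2 difference was -0.05 for CTSB with a 95% interval of -0.30 to 0.20 (limma adjusted p = 0.903), and 0.08 for LGMN with an interval of -0.26 to 0.41 (0.88).

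**Figure D2:**
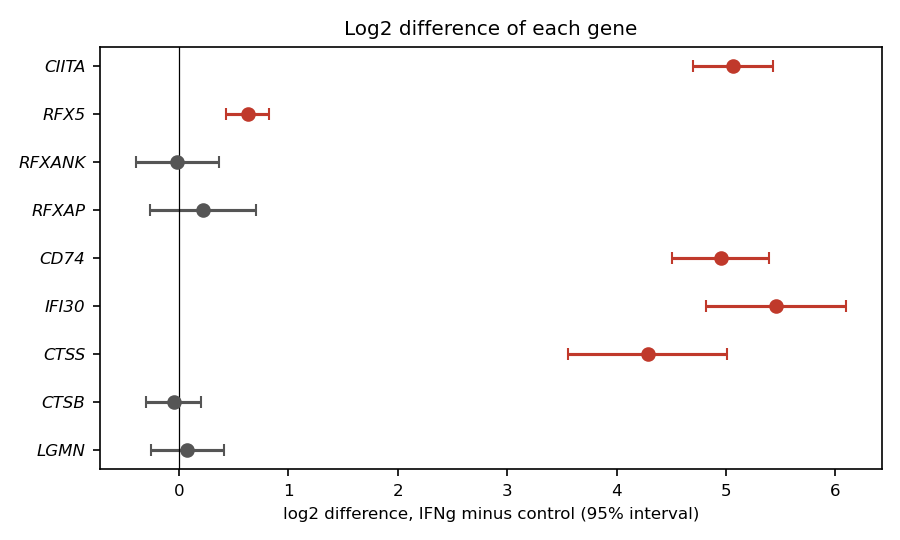
Log2 difference, IFNg minus control (x axis), of each of the 9 genes (y axis) with its 95% interval from limma. Red genes were called higher at an adjusted p of 0.05 and grey genes were not called; IFI30 lies furthest to the right at 5.46, RFX5 lies at 0.63, and the 4 grey intervals span 0.

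Ratios of 2 of these genes within each library were taken on values with the pseudocount of 1 added. The pairs were chosen after the values were seen. The ratios thus restate the differences of the single genes and are no further support for them. The log2 ratio of RFX5 to RFXANK was 2.39, 2.13 and 2.71 in IFNg and 1.94, 1.48 and 1.88 in control, and that of RFX5 to RFXAP was 4.14, 3.97 and 3.90 in IFNg and 3.73, 3.63 and 3.42 in control. In both ratios every IFNg library lay above every control library, so RFX5 transcripts stood higher relative to those of both partners. The log2 ratio of CTSS to CTSB was -6.96, -6.77 and -6.31 in IFNg and -10.87, -11.31 and -10.86 in control, again without overlap. The mean differences, IFNg minus control, were 0.64 for RFX5 to RFXANK, 0.41 for RFX5 to RFXAP and 4.33 for CTSS to CTSB. Each had a 2-sided exact permutation p of 0.1, the smallest that 3 against 3 libraries can give, and 0.133 after adjustment over the 4 ratios computed. The log2 ratio of CD74 to CIITA, by contrast, averaged -2.11 ± 0.05 in IFNg and -1.99 ± 0.43 in control (SD, n = 3 each; exact permutation p = 1). Its difference was -0.11 and turned to 0.13 without control 3.

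Per kilobase, the order of the 9 levels changed with treatment. Levels were divided by the median length of the gene's coding transcripts in GENCODE 29 and are normalised reads per kilobase (mean ± SD, n = 3). In IFNg, CTSB stood first at 27140.2 ± 3602, followed by CIITA at 3343 ± 30.9, RFX5 at 2906 ± 127 and CD74 at 2749 ± 91.1. IFI30 came next at 1508 ± 51.9, then RFXANK at 1072 ± 201, LGMN at 869 ± 159, RFXAP at 194 ± 24.9 and CTSS at 191 ± 19.9. In this order RFX5 and CD74, RFXANK and LGMN, and RFXAP and CTSS overlapped between libraries. In control, CTSB stood first at 27989.6 ± 2742, followed by RFX5 at 1879 ± 64.7, RFXANK at 1081 ± 181, LGMN at 817 ± 74.3 and RFXAP at 167 ± 24.5. CIITA came sixth at 102 ± 27.0, then CD74 at 88.9 ± 14.9, IFI30 at 34.8 ± 12.6 and CTSS at 9.48 (8.46 to 10.5 over libraries), and CIITA and CD74 overlapped. By this length CTSS was last in both groups, while CIITA, CD74 and IFI30 passed RFXANK and LGMN in IFNg. The last place of CTSS in IFNg, next to RFXAP, depends on the length taken, because its 2 coding transcripts have 1421 and 4107 bases. Divided by the union of its exons, CTSS was at 129 in IFNg and 6.38 in control, also last. The place of CIITA depended on its length, because its coding transcripts run from 2344 to 16059 bases: divided by the union of its exons it was at 778 in IFNg, below RFXANK at 848, and at 23.8 in control, below CD74 at 56.3 and IFI30 at 34.8.

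**Figure D3:**
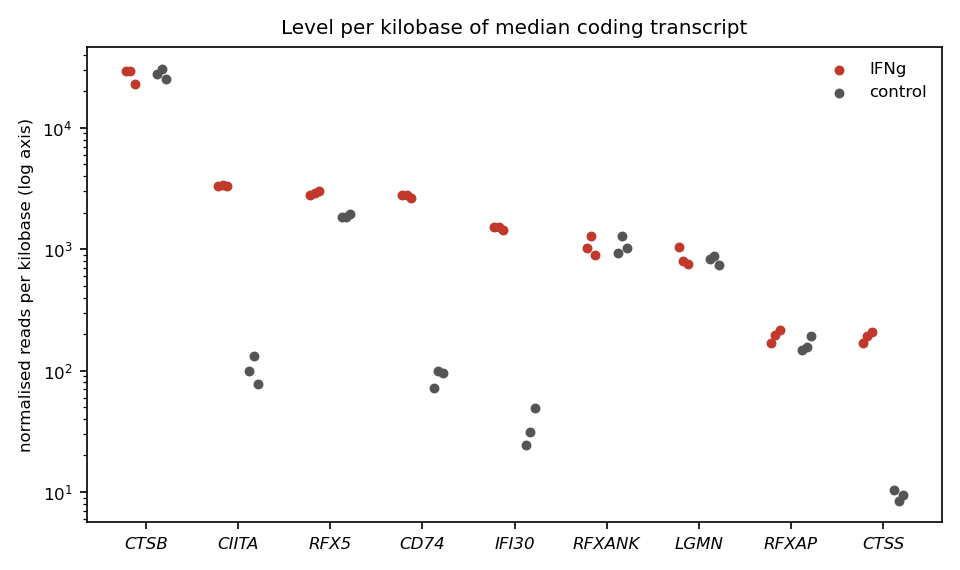
Normalised reads per kilobase of median coding transcript (y axis, log scale) of the 9 genes in each IFNg library (red, left of each pair) and control library (grey, right), ordered by the IFNg mean. CTSB is highest in both groups, and CIITA, CD74, IFI30 and CTSS are the genes whose IFNg and control points lie far apart.

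Of the inputs to CIITA promoter IV, 5 of 8 rose and 1 fell, against 3.27% and 1.05% of all genes tested. Their median log2 difference was 0.75. IRF1, an interferon-induced transcription factor (5.62 ± 0.26, limma adjusted p = 3.7e-08), and USF1, the E box factor (0.80 ± 0.11, 0.000832), rose, as did the kinase gene JAK2 (0.82 ± 0.12, 0.00139). JAK2 missed the threshold when limma was run without its variance trend (adjusted p = 0.0525). The receptor subunit gene IFNGR1 fell by 0.61 on the log2 scale (limma adjusted p = 0.0356). It was not called when any library other than control 3 was left out (0.0818 to 0.158), nor by limma without its variance trend. JAK1 (0.02 ± 0.09) and IFNGR2 (-0.10 ± 0.10) were not called.

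Of the 18 NF-Y, CREB and cofactor genes, 1 rose and 0 fell, against 3.27% and 1.05% of all genes tested. Their median log2 difference was -0.07. The gene that rose was HDAC1, a histone deacetylase (0.61 ± 0.10, limma adjusted p = 0.00471), which was not called when limma was run without its variance trend (adjusted p = 0.116). The chromatin remodeller gene SMARCA4 averaged 13701 ± 370.2 in IFNg and 14009 ± 569 in control, and HDAC2 averaged 13900.2 ± 471 in IFNg and 12838 ± 528 in control. Unadjusted, 1 of the 18 was higher and 2 were lower at p of 0.05, against 8.81% and 6.46% of all genes tested. Neither edgeR nor DESeq2 called any of the 18 lower. With a term for libraries numbered 3, 1 of the 18 was called lower, and without both of those libraries 3 were. Over all genes these fits called 573 and 599 lower, against 163 with all libraries and no such term. Among the 5 other RFX family genes kept, limma, edgeR and DESeq2 called 0. At an unadjusted p of 0.05, 1 was lower, against 6.46% of all genes tested. RFX7 averaged 4449 ± 43.6 in IFNg and 4063 ± 208 in control, and RFX8 averaged 1711 ± 198 in IFNg and 1914 ± 389 in control.

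The HLA class II chains, the targets of CIITA, rose in 6 of 10 genes kept and fell in 0, with a median log2 difference of 3.02. Over all genes tested the shares were 3.27% higher and 1.05% lower. The median lies between HLA-DRB5 (3.01) and HLA-DQB1 (3.04), with 22 and 21 reads in IFNg and 0 in control. Both passed the filter only through the IFNg libraries, so they could only be found higher, and their differences rest on the pseudocount. Of the 10 chains, edgeR called 5 and DESeq2 7 higher and 0 lower. At an unadjusted p of 0.05 in limma 9 were higher, HLA-DRB5 and HLA-DQB1 among them, and 0 lower. The shares of all genes tested were 8.81% and 6.46%. HLA-DRA averaged 853 ± 86.3 in IFNg and 46.9 ± 24.3 in control (4.26 ± 0.36, limma adjusted p = 9.88e-06). HLA-DMA and HLA-DMB, whose product removes CLIP, had log2 differences of 1.90 ± 0.28 (limma adjusted p = 0.00134) and 3.45 ± 0.42 (0.000278), and HLA-DPA1 of 2.54 ± 0.31 (0.000288). HLA-DPB1 (0.32 ± 0.29) and HLA-DOA (3.78 ± 0.99, limma adjusted p = 0.055) were not called, although HLA-DOA was called without control 3 (0.0197) and by DESeq2 (0.00577). Reads of close HLA copies may have been shared, so values of single HLA genes are uncertain. Of the 17 chains listed 13 were in the table, and 5 of these had 0 reads in control. Among them HLA-DQB1 had 21 reads in IFNg, a ratio of 7.55 to a floor of 3 reads over the control group. It was not called (limma adjusted p = 0.221), and the 95% interval of its log2 difference was 0.50 to 5.57.

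Among 11 other cathepsin genes kept, with a median log2 difference of 0.17, 1 rose and 0 fell, against 3.27% and 1.05% of all genes. This was CTSO, encoding cathepsin O, at 713 ± 22.4 in IFNg and 238 ± 78.5 in control (1.63 ± 0.25, limma adjusted p = 0.00212), and it was called in all 17 alternative fits. The abundant cathepsin genes CTSD (9081 ± 1056 in IFNg and 10847 ± 1391 in control) and CTSA (6845 ± 364 in IFNg and 7298 ± 434 in control) were not called. CTSL, listed under its older symbol CTSL1, had a log2 difference of 0.17 ± 0.12. Unadjusted, 1 other cathepsin was lower at p of 0.05, against 6.46% of all genes tested, and neither edgeR nor DESeq2 called any lower.

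Of 4 cystatin genes kept, which encode inhibitors of cysteine proteases, limma, edgeR and DESeq2 called 0. At an unadjusted p of 0.05, 0 were higher and 1 lower, against 8.81% and 6.46% of all genes tested. The abundant ones were CST3, at 3762 ± 385 in IFNg and 4126 ± 122 in control, and CSTB, at 1976 ± 198 in IFNg and 2296 ± 231 in control. The median log2 difference was -1.27, between those of the abundant genes and those of the low genes CSTA (-2.33) and CST7 (-3.25), with 72 and 10 reads in IFNg and 302 and 82 in control. With the replicate block, with a term for libraries numbered 3 and without both of those libraries, 1 of the 4 was called lower. Over all genes these fits called 549, 573 and 599 lower, against 163 with all libraries and no covariate.

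Genes that handle the invariant chain, class II traffic and lysosomes in general showed few calls, as did all genes tested (limma called 4.32%). Of 5 partners of the invariant chain, limma, edgeR and DESeq2 called 0, also at an unadjusted p of 0.05, and its surface partner CD44 averaged 119168 ± 2164 in IFNg and 131064 ± 1373 in control, while its ligand MIF averaged 14186 ± 1194 in IFNg and 14154 ± 1425 in control. Of 13 genes of class II traffic and turnover these tools also called 0, and 0 at an unadjusted p of 0.05, with AP2M1, an adaptor subunit of endocytosis, at -0.08 ± 0.09 and the late endosome GTPase gene RAB7A at -0.04 ± 0.08. Of 27 general lysosomal genes 0 rose and 1 fell, with a median log2 difference of -0.03. PSAP (-0.05 ± 0.11) and NPC1 (-0.02 ± 0.13), which encode a lysosomal activator precursor and a cholesterol exporter, were not called. The gene that fell was TFE3, a transcription factor of lysosomal genes (-0.49 ± 0.11, limma adjusted p = 0.0249). It was not called when any library other than control 3 was left out (0.0505 to 0.145), nor by limma without its variance trend. edgeR and DESeq2 also called 0 of the 27 higher and 1 lower. At an unadjusted p of 0.05, 1 was higher, against 8.81% of all genes tested.

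CIITA belongs to the NLR family of NACHT domain proteins, and of 7 relatives 3 rose and 1 fell. Over all genes tested the shares were 3.27% higher and 1.05% lower. The median log2 difference of the 7 was 0.21. NOD2, 1 of the 3, passed the filter only through its IFNg libraries and so could only be found higher. NLRC5, the class I counterpart of CIITA, averaged 13243 ± 431 in IFNg and 1167 ± 148 in control (3.51 ± 0.11, limma adjusted p = 1.67e-09). The peptidoglycan sensor gene NOD1 (0.84 ± 0.20, limma adjusted p = 0.0377) lost its call without IFNg 1, IFNg 2, control 1 or control 2 (0.132 to 0.182). NOD2 had 56 reads in IFNg and 0 in control, a ratio of 20.4 to a floor of 3 reads over the control group. In limma the 95% interval of its log2 difference was 2.04 to 6.53. Its limma adjusted p of 0.0366 became 0.0751 to 0.198 when any library other than control 3 was left out. The inflammasome gene NLRP1 fell by 0.50 on the log2 scale (limma adjusted p = 0.0238). It was likewise not called when any library other than control 3 was left out (0.0558 to 0.147), nor by limma without its variance trend. NLRX1 (-0.24 ± 0.16) and NAIP (0.21 ± 0.23) were not called.

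**Figure D4:**
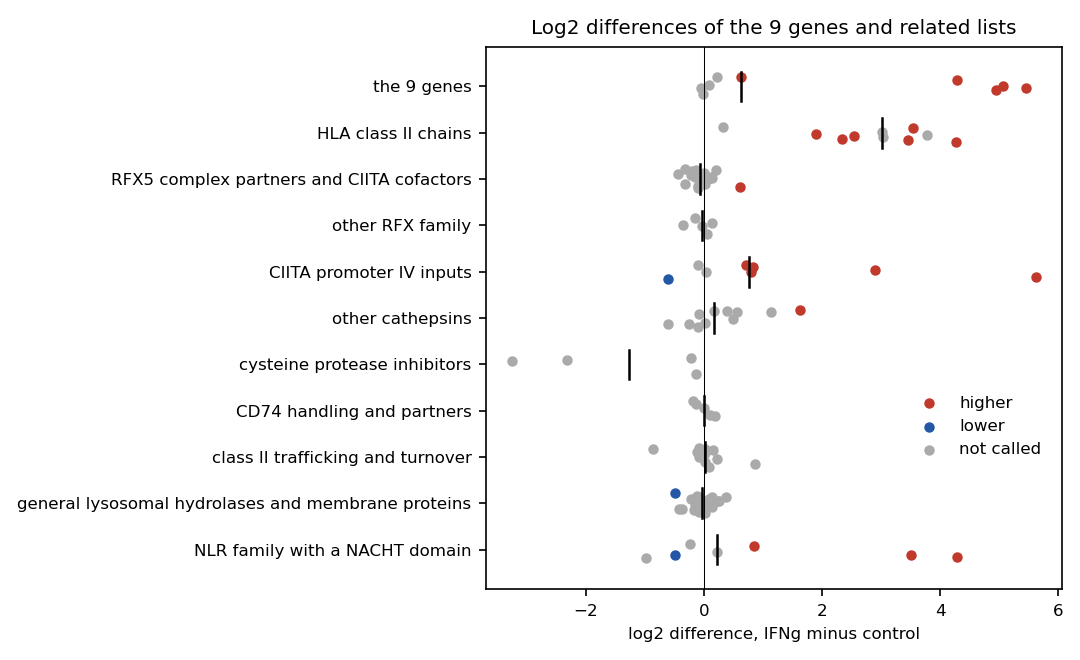
Log2 difference, IFNg minus control (x axis), of the 9 genes and of every kept gene in 10 related lists (rows); red points were called higher, blue points lower and grey points not called by limma, and the black bar is the median of the row. Points spread slightly up and down within a row only to be told apart; the HLA class II chains reach 4.26, while the general lysosomal row stays between -0.49 and 0.38.

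The genes next to the 9 on the chromosome were compared as a local reference. Of the 18 nearest table genes on either side by RefSeq order, 16 were kept, and limma, edgeR and DESeq2 called 0 of them. At an unadjusted p of 0.05, 1 was higher and 0 lower, against 8.81% and 6.46% of all genes tested. The 18 neighbours were TVP23A and DEXI for CIITA, PI4KB and PSMB4 for RFX5, MEF2BNB and NR2C2AP for RFXANK, SERTM1 and SMAD9 for RFXAP, and TCOF1 and NDST1 for CD74. Those of the others were PIK3R2 and MPV17L2 for IFI30, GOLPH3L and CTSK for CTSS, FDFT1 and ZNF705D for CTSB, and RIN3 and GOLGA5 for LGMN. SERTM1 and ZNF705D were below the filter. MPV17L2, which follows IFI30, averaged 613 in IFNg and 401 in control without overlap (0.62 ± 0.21, limma adjusted p = 0.166). DEXI overlaps CIITA and NR2C2AP overlaps RFXANK in RefSeq, and as the strand setting of the counting is not given in the sources used here, their shared reads cannot be told apart. DEXI had a log2 difference of -0.06 ± 0.17 and NR2C2AP of -0.04 ± 0.15.

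Across the 6 libraries, the profiles most like that of CIITA, by root mean square distance of log2(value + 1) centred on each gene's mean, were those of APOL3 (0.15), BATF2 (0.16), CD74 (0.25), TAP1 (0.27) and C1R (0.27). Those most like CD74 were LOC100507463 (0.10), C1R (0.17), SLC15A3 (0.22), C20orf141 (0.24) and CIITA (0.25). Those most like CTSS were SAMD9L (0.14), PARP9 (0.15), IFIT3 (0.15), TAP1 (0.27) and C1R (0.29). Distances are in log2 units, and all of these genes were called higher by limma, with log2 differences between 4.06 (SAMD9L) and 5.32 (BATF2). Because each profile is the same 6 libraries in 2 groups, genes with a like difference between the groups are near each other by construction.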

How the data were processed

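The deposited table gives 1 value per gene symbol and library, with replicates kept apart. Builds hg19 and GRCh37 and the tools TopHat2 2.0.13, Cuffdiff 2.2.1, Cufflinks and FastQC 0.11.3 are listed, per the submitters' processing notes, without their roles. Which program counted reads, with which strand setting, is not stated there. The deposited name says RPKM, but the values are another signal: dividing each by the value of 1 read in its library gave whole reads, within 0.001, for 100% of them. The deposited signal thus equals reads over a library's size factor (0.863 for IFNg 3 to 1.20 for control 2). No pair of libraries within a group was as close as counting noise alone would leave it (chi-square over its degrees of freedom 15.8 to 115).

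A gene was tested if 3 or more libraries reached 0.5 (15546 genes). Log2(value + 1) was fitted by limma 3.58.1 (R 4.3.3) letting the variance follow the mean and with no covariate, 2-sided, with Benjamini-Hochberg adjustment over all kept genes at 0.05. A pseudocount of 1 understates the change of low genes. Exact permutation tests served for ratios. Alternatives were edgeR 4.0.16 (quasi-likelihood, 665 genes called) and DESeq2 1.42.0 (1036) on the recovered reads, pseudocounts of 0.5 and 5, other filters, no variance trend, TMM factors, a replicate block, a term for libraries numbered 3, both of those libraries left out, and each library left out. The tests were run on simulated data with known changes. That simulation gave all genes the same extra spread beyond counting noise, no effect of single libraries, and changes only in genes that were not low. It thus does not bear on calls of low genes here, or on calls that depend on single libraries.

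The 9 genes and the 10 related lists were chosen from general knowledge with earlier results of these data known. Named from each list were up to 4 called genes per direction with the smallest adjusted p and the 2 uncalled genes of highest mean, and for CIITA, CD74 and CTSS the 5 nearest profiles, and the nearest neighbour on each side of each of the 9 genes. The 4 ratios, the lengths, the mention of HLA-DQB1, HLA-DRB5, CTSL1, CSTA and CST7 and the choice of promoter windows came after the values were seen. Promoter sequences and gene order are from RefSeq and lengths from GENCODE 29, both on GRCh38; gene coordinates on hg19 are not used here. Windows of 5 of the 9 genes were searched. Floors cover counting error of the control group only, not that of the IFNg group or the spread between libraries. Values of 1 gene that the rule names are not reported here.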

Additional observations from a re-analysis of the deposited data

How the results depend on the processing

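CIITA, RFX5, CD74, IFI30 and CTSS were higher and past the threshold in all 17 alternative fits, with log2 differences of 4.87 to 5.25, 0.60 to 0.66, 4.80 to 5.04, 5.24 to 5.76 and 4.10 to 4.37 and adjusted p up to 0.0339 (RFX5). RFXANK, RFXAP, CTSB and LGMN were called in none of them. Signs of uncalled genes turned: leaving out each library in turn gave -0.16 to 0.11 for RFXANK (0.078 without both libraries numbered 3), -0.12 to 0.0666 for CTSB, -0.0667 to 0.17 for LGMN, -0.0305 to 0.0864 for JAK1, -0.0639 to 0.0837 for MIF, -0.13 to 0.0492 for PSAP, -0.17 to 0.0764 for NPC1, -0.19 to 0.10 for DEXI (0.14 without both numbered 3), -0.11 to 0.0269 for NR2C2AP (0.0404) and -0.25 to 0.13 for the log2 ratio of CD74 to CIITA (0.16). SMARCA4 was at 0.0083 without both. None of these differences was called and the cause was not tested.

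The number of genes called, 672 (509 higher, 163 lower), depended on the fit: 320 (279 and 41) with no variance trend, 1036 by DESeq2 (332 lower), 1539 (966 and 573) with a term for libraries numbered 3, 1481 (882 and 599) without both, and 386 to 1302 (330 to 847 higher, 37 to 455 lower) leaving out each library. The total was 386 without IFNg 1, 405 without IFNg 2 and 1302 without control 3, and the count of lower genes was 37 without control 2. With the replicate number as a block, 1464 were called (915 and 549). The numbers are not shown to pair libraries. Same-numbered deviations correlated at 0.04, 0.02 and 0.11 for numbers 1, 2 and 3, and differently numbered ones at -0.07 to 0.03. The highest was that of the libraries numbered 3, and whether these share an effect was not tested. The block changed no call of the 9 genes but called HLA-DOA (adjusted p = 0.00594). Depth limits CTSS, IFI30 and CD74 in control, with 82, 125 and 301 reads in all.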
